A study of Rattus norvegicus with 484 samples.

Results

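Rosiglitazone, a thiazolidinedione agonist of the nuclear receptor PPARG, was given to rats at 2 doses, and the EDL (extensor digitorum longus, a fast muscle of the lower leg) was profiled on day 4. Arrays were chosen by their labels: EDL, rosiglitazone and day 4, with 4 rats at 100 mkd (rats 1373, 1374, 1375 and 1376) and 3 rats at 10 mkd (rats 1345, 1346 and 1348), which makes 7 of the 484 arrays of the series and 7 of its 54 EDL arrays. The dose unit is written here as the labels write it. Each array set the RNA of 1 rat against the same pool of 15 vehicle rats of that muscle and day, so the pool and the dye orientation were common to both doses and cancel in their difference. The labels gave no strain, sex or age, no EDL array of a single vehicle rat and no EDL time point other than day 4 for 100 mkd. The other EDL arrays used here were 12 of day 4, with 3 rats each on fenofibrate 50 mkd, bezafibrate 25 mkd, Wy-14643 10 mkd (PPARA agonists) and retinoic acid 2.5 mkd, and those of days 5 and 6, with 6 rats at 10 mkd rosiglitazone and 24 on the other compounds. Rats of the 2 doses were different animals. Nothing in the labels says how they were caged or processed. P-values measure the spread between arrays within the 18 EDL groups of all 54 arrays, not within the 7 alone. The EDL arrays of day 3, 2 on retinoic acid 2.5 mkd and 3 on Wy-14643 10 mkd, entered only that estimate of spread.

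PPARG pairs with a retinoid X receptor on DNA and, when a thiazolidinedione binds it, raises genes of fatty acid uptake, binding and storage. It is most abundant in fat cells. In muscle it is low, and the muscle also holds capillaries, fat cells and connective tissue cells in which the same receptor is active. A response may therefore come from any of these, and in bulk RNA fewer cells of a type cannot be told apart from less RNA per cell. Because every value is a ratio to a pool of the same muscle, the label EDL could not be checked against fibre markers.

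A value is the log2 ratio of a rat to the vehicle pool. Which way the deposited ratio runs is not stated, and rat over pool is likely from the channels and the order in the labels. Across all 18603 features (10210 genes and the probes with no single gene), limma called a feature when its Benjamini-Hochberg adjusted p was under 0.05. The response at each dose was read as the difference from the 12 arrays of the other compounds of day 4. The mean of those 12 arrays itself differed from the pool for 7354 features (39.5%). Of the 6165 features called against the pool at 100 mkd, 4199 were also called, in the same direction, for the other compounds. A stricter set of 5684 features was called against the pool at a rosiglitazone dose, and again after subtracting the median of the quad vehicle arrays. Of these, 3996 (70.3%) were also called for the other compounds in the direction of the 100 mkd value. Against the pool alone 1797 features (9.66%) were called at 10 mkd and 6165 (33.1%) at 100 mkd. These counts are given once and not used further. A response common to rosiglitazone and the other compounds is not seen with this reference, and 9 of its 12 arrays are of PPARA agonists.

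The direct difference between doses was small for nearly every feature. Only 2 of 18603 features (0.0108%) were called, both higher at 100 mkd: Aqp3, a channel for water and glycerol, and 1 probe without a gene name, probe 10011871640. None was called lower, and 911 features (4.90%) had an unadjusted p under 0.05 by limma. That share is about what a threshold of 0.05 gives without any difference. The median SE of a difference was 0.12 and the median 95% interval, not adjusted for the number of features, reached 0.24 to each side. Larger differences also missed a call over all features. Examples are Stmn1 (-0.39 ± 0.10, adjusted p = 0.49 by limma) and the adipocyte marker Adrb3 (-0.50 ± 0.11, adjusted p = 0.31). The count of calls is therefore not a count of the features that changed. With these 7 arrays as the whole fit, which leaves 5 residual degrees of freedom, limma called 0 features, 887 had an unadjusted p under 0.05, and the smallest adjusted p was 0.86. All 4 arrays at 100 mkd lay above all 3 at 10 mkd for 560 features (3.01%) and below them for 515 (2.77%). Shares of this size also arise without any difference when 4 arrays are set against 3, so groups without overlap are weak evidence for a single gene.

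Rbp7, a retinol-binding protein of capillary and fat cells, and Aqp3 stand for the different shapes of response: Rbp7 was already near its high-dose value at 10 mkd, and Aqp3 moved at 100 mkd only as far as these arrays resolve. Their promoters, 250 bases up to the annotated start, are shown because the reading of dose turns on this pair. They are written 5′ to 3′ on the gene's strand, from RefSeq on the build GRCr8, with each TATAA, the letters of a TATA box, in capitals.
Rbp7, chr5:165177400-165177649, minus strand: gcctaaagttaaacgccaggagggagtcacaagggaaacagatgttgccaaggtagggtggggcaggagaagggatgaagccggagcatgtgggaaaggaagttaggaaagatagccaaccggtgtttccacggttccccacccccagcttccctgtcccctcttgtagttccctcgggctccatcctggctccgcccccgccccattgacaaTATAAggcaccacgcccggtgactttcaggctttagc
Aqp3, chr5:61040684-61040933, minus strand: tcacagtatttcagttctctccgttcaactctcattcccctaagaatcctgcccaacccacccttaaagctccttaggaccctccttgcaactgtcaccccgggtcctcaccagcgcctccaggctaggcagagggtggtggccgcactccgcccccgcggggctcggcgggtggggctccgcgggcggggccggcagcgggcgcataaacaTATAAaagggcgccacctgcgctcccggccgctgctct
Both hold TATAA shortly before the start. Of the 33469 promoters of the same length, 24.0% hold these letters anywhere in the window on either strand. The direct repeat AGGTCANAGGTCA, the consensus element of PPAR dimers, was searched on both strands and lies in neither promoter. It was found in 17 of all promoters (0.0508%), and the looser AGGNCANAGGNCA, which includes it, in 123 (0.368%). Of 120 genes chosen for description 91 were in the promoter table, and 0 of them held either repeat in this window. The single element, AGGTCA, was found in 16 of the 91 genes and in 14.1% of all promoters, in neither Rbp7 nor Aqp3. A match or its absence describes these letters only.

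Aqp3 was at the level of the other compounds at 10 mkd and more than doubled at 100 mkd. Its log2 ratio was 0.80, 1.14, 1.16 and 1.45 in the 4 rats at 100 mkd. The 3 rats at 10 mkd read 0.00, 0.10 and 0.14, inside the range of the other compounds (-0.27 to 0.40, median 0.11). The groups did not overlap, and the lowest rat at 100 mkd stood above every array of another compound. The difference was 1.06 ± 0.13 (SE), with a 95% interval of 0.80 to 1.32 and an adjusted p of 5.6e-06 by limma, which is 2.09-fold. Relative to the other compounds the value was 1.05 ± 0.10 at 100 mkd and -0.01 ± 0.11 at 10 mkd. Leaving out any 1 of the 7 arrays gave 0.96 to 1.17, with adjusted p between 5.8e-07 and 0.00039, and only the fit on the 7 arrays alone lost the call (adjusted p = 0.86).

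At 10 mkd on later days Aqp3 stayed below the day 4 rats at 100 mkd. On day 5 it read 0.10, 0.26 and 0.51 and on day 6 0.17, -0.03 and 0.54, all below the lowest rat at 100 mkd. Their median was 0.22, and the values of 0.51 and 0.54 lay above the highest day 4 array of another compound (0.40). Other muscles of the same 4 rats were measured too. In quad, set against the mean of single vehicle rats of day 4, the values were 0.51, 0.85, 1.33 and 0.64, all above 0. The 15 vehicle quads of day 4 themselves read -0.66 to 0.55 (median -0.15) before that mean was subtracted. In soleus, a slow muscle, the values of the 4 rats were 0.06, -0.34, 0.45 and 0.87, with 1 of the 4 rats below 0. A single probe measured Aqp3.

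The unnamed probe 10011871640 differed by 0.94 ± 0.18 (SE; 95% interval 0.59 to 1.30, adjusted p = 0.041 by limma). It read 0.91, 1.14, 1.04 and 1.02 at 100 mkd and 0.46, 0.25 and -0.46 at 10 mkd, so its low-dose rats were far apart and its high-dose rats close together. On days 5 and 6 at 10 mkd it lay between 0.12 and 0.75. The call rested on single arrays: it was kept without rat 1346 (adjusted p = 0.0083) and lost without any of the other 6, with adjusted p from 0.053 to 0.71, and the difference fell to 0.67 without rat 1345.

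**Figure D1:**
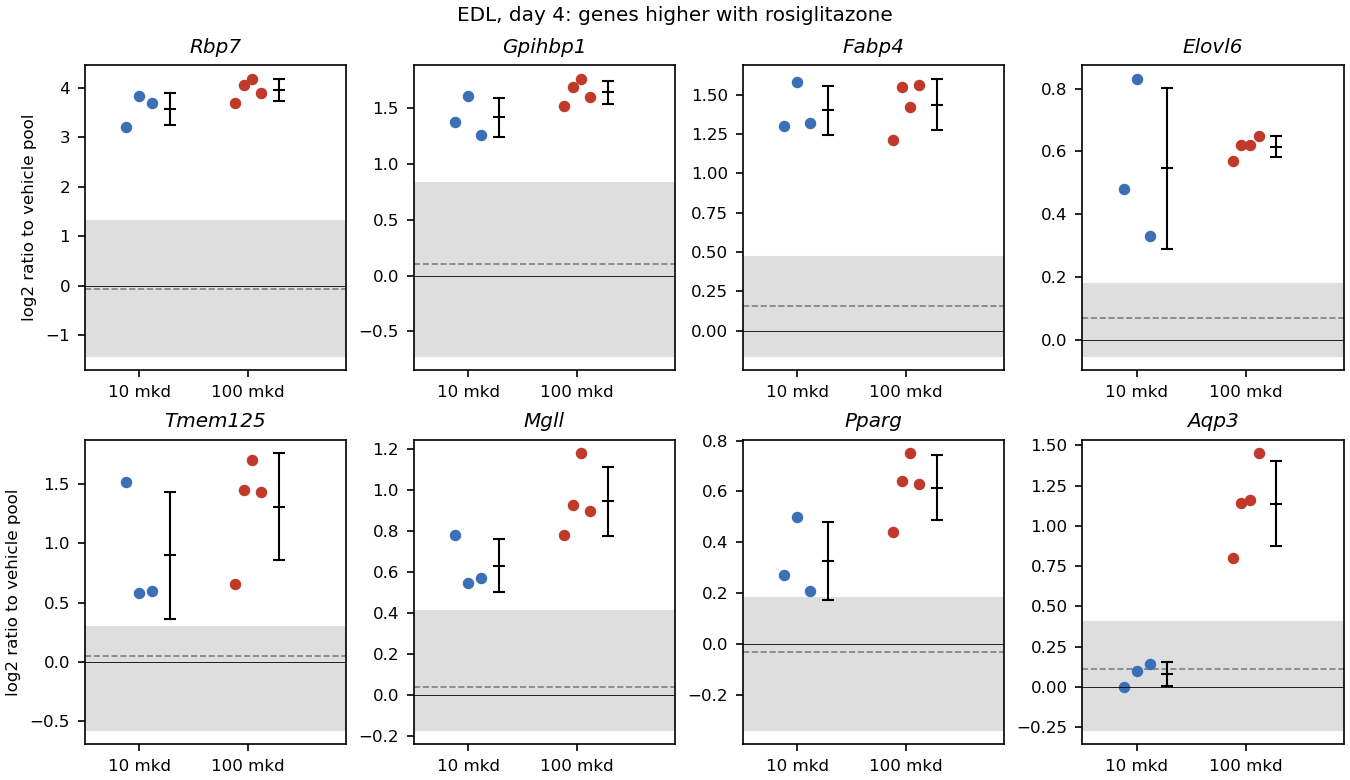
Log2 ratio to the vehicle pool for 8 genes in EDL on day 4, 1 point per rat, at 10 mkd (blue, 3 rats) and 100 mkd (red, 4 rats); black marks are the mean and SD, the grey band is the range of the 12 arrays of other compounds and the dashed line their median. Rbp7, Gpihbp1, Fabp4 and Elovl6 stood above the band at both doses with overlapping groups, while Aqp3 lay inside the band at 10 mkd (0.00 to 0.14) and above it at 100 mkd (0.80 to 1.45).

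At 10 mkd 12 features (0.0645%) were called against the other compounds, 10 higher (0.0538%) and 2 lower (0.0108%). Of these 7 are named genes, all higher: Rbp7, Gpihbp1, Fabp4, Tmem125, Mgll, Tbc1d9 and Elovl6. At 100 mkd 291 features (1.56%) were called, 183 higher (0.984%) and 108 lower (0.581%), of which 107 and 66 were named. The larger count at 100 mkd is not a test of dose, since it also depends on the 4 rats there against 3. It moved with single arrays, to 569 without rat 1373, 192 without rat 1374, 149 without rat 1375 and 144 without rat 1376, and the count of 12 at 10 mkd fell to 7 without rat 1346. Each rosiglitazone array was also wider at the high dose: the median absolute deviation of all log2 ratios on an array was 0.160 to 0.183 at 100 mkd, 0.114 to 0.146 at 10 mkd and 0.114 to 0.222 on the 12 others. With all arrays scaled to one spread the counts were 20 at 10 mkd and 82 at 100 mkd.

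Genes of fatty acid handling were among those called at the low dose. Rbp7 showed the largest response at both doses. It read 3.21, 3.83 and 3.70 at 10 mkd and 3.69, 4.07, 4.18 and 3.89 at 100 mkd, and the groups overlapped. These are mean ratios of 12.0-fold and 15.5-fold over the pool, against -1.42 to 1.31 on the log2 scale in the other compounds. The difference between doses was 0.38 ± 0.35 (SE; 95% interval -0.34 to 1.09), at most 1.09 on a low-dose response of 3.58 ± 0.30 relative to the other compounds.

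Fabp4, the fatty acid-binding protein of fat and capillary cells, was flat between the doses. The 3 rats at 10 mkd read 1.30, 1.58 and 1.32 and the 4 at 100 mkd 1.21, 1.55, 1.42 and 1.56, and the groups overlapped. The difference was 0.04 ± 0.14 (95% interval -0.25 to 0.32), beside a response of 1.22 ± 0.12 at 10 mkd and 1.26 ± 0.11 at 100 mkd. Fabp4 is also a fat cell gene. Adipoq was not measured. Of 14 listed adipocyte markers 11 were measured. At 10 mkd, at 100 mkd and between doses 0 of them were called, beside 0.0645%, 1.56% and 0.0108% of all features. Their median difference between doses was -0.12, with 3 of 11 above 0. Relative to the other compounds their median was 0.18 at 10 mkd and -0.01 at 100 mkd. Their median per array was -0.09 to 0.32 at 10 mkd, -0.09 to 0.05 at 100 mkd and -0.10 to 0.12 in the others. The part of fat cells in Fabp4 was not tested. Its 4 probes differed by -0.03 to 0.13 between doses.

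Gpihbp1, the capillary anchor of lipoprotein lipase, read 1.38, 1.61 and 1.26 at 10 mkd and 1.52, 1.69, 1.76 and 1.60 at 100 mkd. Both groups lay above all 12 arrays of the other compounds, whose highest was 0.83. The difference was 0.23 ± 0.24 (95% interval -0.25 to 0.71) on a response of 1.28 ± 0.20 at 10 mkd. Lpl itself, the lipase that Gpihbp1 holds, did not pass the test at either dose (-0.05 ± 0.29 at 10 mkd and -0.05 ± 0.26 at 100 mkd).

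Elovl6, a fatty acid elongase, read 0.48, 0.83 and 0.33 at 10 mkd and 0.57, 0.62, 0.62 and 0.65 at 100 mkd. The high-dose values all fell between the lowest and highest low-dose rats, and the difference was 0.07 ± 0.10 (95% interval -0.13 to 0.27) on a low-dose response of 0.48 ± 0.08. Its low-dose call was lost without rat 1348, where the response was 0.33 (adjusted p = 0.4 by limma). Its 4 probes disagreed in level: their low-dose means ran from -0.03 to 1.03. Tbc1d9, a gene of the family of regulators of Rab GTPases, had responses of 0.51 ± 0.10 and 0.62 ± 0.09 and a difference of 0.12 ± 0.12 (95% interval -0.13 to 0.36). Its low-dose call was lost without rat 1346 (0.43) or rat 1348 (0.51).

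A response was counted as level when it was called at 10 mkd, the difference between doses was not called, and the whole 95% interval of that difference stayed within 0.5 times the low-dose response. It was counted as rising further when the difference itself was called. The level rule allows more for a larger response, so Rbp7 counted as level with an interval reaching 1.09. Of the features called at either dose against the other compounds, 3 were level (named: Rbp7 and Fabp4), 2 rose further (Aqp3 and the unnamed probe), 0 fell back and 286 were undetermined. With the pool in place of the other compounds 25 features were level, but 22 of these were also called in the same direction for the other compounds. That rule also needed the call to hold after subtracting the median of the quad vehicle arrays. Gpihbp1, Elovl6 and Tbc1d9 missed the level rule because their intervals were too wide for their responses. Scaling the arrays to one spread turned the difference below 0 for Rbp7 (-0.70), Fabp4 (-0.37), Gpihbp1 (-0.21), Elovl6 (-0.11) and Tbc1d9 (-0.03), none of them called.

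Between these shapes stood genes that were higher at both doses, with a high-dose mean above the low-dose mean. Mgll, a lipase that frees glycerol and fatty acid from monoglycerides, read 0.78, 0.55 and 0.57 at 10 mkd and 0.78, 0.93, 1.18 and 0.90 at 100 mkd. The lowest high-dose rat equalled the highest low-dose rat at 2 decimals. The difference was 0.32 ± 0.11 (95% interval 0.10 to 0.54, adjusted p = 0.96 by limma) on a response of 0.57 ± 0.09, so it fell short of a call over all features. Of its 4 probes 3 differed by 0.35 to 0.45 and the other by 0.07.

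Pparg, the receptor that rosiglitazone binds, read 0.27, 0.50 and 0.21 at 10 mkd and 0.44, 0.64, 0.75 and 0.63 at 100 mkd. Relative to the other compounds it was 0.39 ± 0.09 (adjusted p = 0.16) at 10 mkd and 0.68 ± 0.08 (adjusted p = 1.1e-06) at 100 mkd. The difference was 0.29 ± 0.11 (95% interval 0.06 to 0.52, adjusted p = 1). Of its 3 probes 2 carried the response, with differences of 0.38 and 0.44, and the third read -0.10 at 10 mkd and -0.05 at 100 mkd. Ppara and Ppard, the other members of the receptor family, had differences of -0.02 ± 0.11 and -0.11 ± 0.06.

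Tmem125, which encodes a membrane protein, rested on 1 low-dose rat. Rat 1346 read 1.52 and the other 2 rats at 10 mkd 0.58 and 0.60, against 0.66, 1.45, 1.70 and 1.43 at 100 mkd. The response of 0.89 ± 0.17 at 10 mkd fell to 0.58 without rat 1346 and was then not called (adjusted p = 0.87). Its difference was 0.41 ± 0.20 (95% interval 0.01 to 0.81).

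Cd36, the fatty acid transporter of the cell surface, read 0.95, 0.40 and 0.29 at 10 mkd and 0.53, 1.01, 1.28 and 1.33 at 100 mkd, with overlapping groups. Only the high dose was called (0.97 ± 0.19, adjusted p = 0.0025 by limma, against 0.48 ± 0.21 at 10 mkd). The difference between them was 0.49 ± 0.25 (95% interval -0.02 to 1.00) and was not called. Fabp5, a second fatty acid-binding protein, read 0.49, 0.75 and 0.79 at 10 mkd and 1.04, 1.11, 1.57 and 1.15 at 100 mkd without overlap, a difference of 0.54 ± 0.26 (95% interval 0.01 to 1.08). Plin2, a coat protein of lipid droplets, read 0.55, 0.18 and 0.16 and then 0.27, 0.62, 0.91 and 0.72, a difference of 0.33 ± 0.14. Angptl4, a secreted inhibitor of lipoprotein lipase, had nearly the same mean at both doses: 0.73 ± 0.20 at 10 mkd, which was not called, and 0.76 ± 0.18 at 100 mkd, which was, with a difference of 0.03 ± 0.24 (95% interval -0.46 to 0.51).

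Over the whole list of fatty acid uptake, binding and lipid droplet genes, 21 of 24 were measured. Of these 4 were called higher at 10 mkd, where 0.0538% of all features were, and 9 at 100 mkd, where 0.984% were. The list includes Rbp7, a retinol-binding protein, which counts among the called genes at both doses. None was called lower, and 0 passed the test between doses (0.0108% of all features). The median difference between doses over the 21 was 0.11, with 17 above 0, beside a median of -0.01 and 8813 of 18603 above 0 over all features. The list of PPARG readouts gave 3 of 27 measured genes called higher at 10 mkd, 7 at 100 mkd and 0 between doses, beside the same shares of all features, with a median difference of 0.04. Both lists were chosen with earlier results of these data known, so the shares describe the lists and do not test them. In mitochondrial beta-oxidation 0 of 22 genes were called at either dose or between doses, and the medians were -0.05 at 10 mkd and -0.07 at 100 mkd. Its widest member was Acot1, an acyl-CoA thioesterase, with a difference of 0.79 ± 0.50. Pdk4 and Ucp3, which respond to fatty acids in muscle, had differences of 0.20 ± 0.31 and 0.37 ± 0.28 and no call. Of 22 lipogenesis genes 1, Elovl6, was called at each dose, and 0 between doses.

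**Figure D2:**
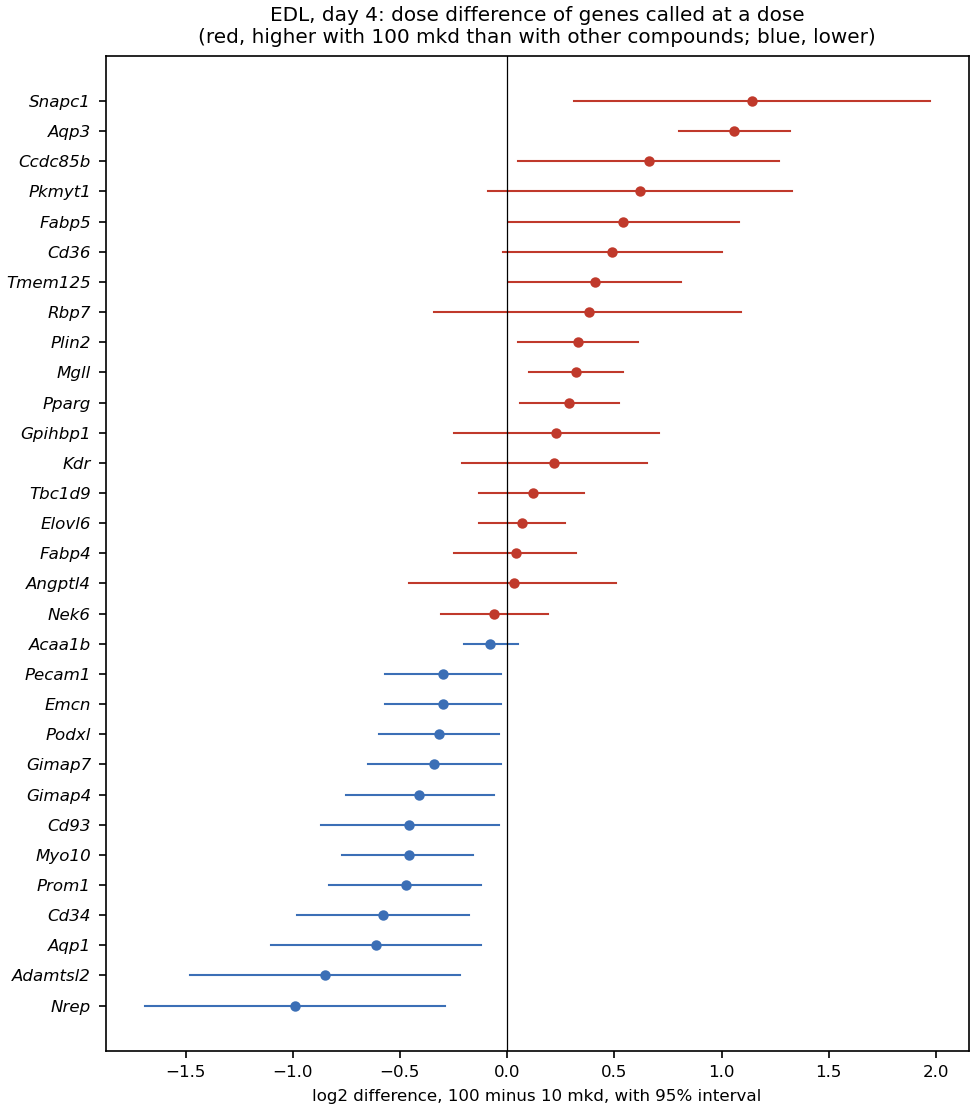
Difference in log2 ratio between 100 and 10 mkd, with its 95% interval, for 31 of the 120 genes chosen for description, not for all genes called. They are Aqp3 and those of the 120 called at either dose against the other compounds, with means on the same side at both doses. Red genes were higher at 100 mkd than with the other compounds and blue genes lower. Intervals lay above 0 for 8 genes, below 0 for 12 and across it for 11; most were picked for a large value at 100 mkd, which tilts their differences the same way.

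Genes of vessels were among those called lower at 100 mkd. Aqp1, the water channel of capillary endothelium, read -1.21, -1.02, -1.52 and -1.26 at 100 mkd and -0.78, -0.49 and -0.66 at 10 mkd, without overlap. Relative to the other compounds it was -0.94 ± 0.18 at 100 mkd (adjusted p = 0.0024 by limma) and -0.33 ± 0.21 at 10 mkd, and the difference was -0.61 ± 0.24 (95% interval -1.10 to -0.12, adjusted p = 1). Arrays of the other compounds went down to -1.08, so only the high-dose rats other than rat 1374 lay outside them.

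Of 18 listed endothelial markers 14 were measured. At 100 mkd 3 were called lower, Aqp1, Emcn and Pecam1, beside 0.581% of all features, and 1 higher, Kdr, beside 0.984%. At 10 mkd and between doses 0 were called, beside 0.0645% and 0.0108% of all features. Emcn, a surface sialomucin of veins and capillaries, read -0.46, -0.36, -0.65 and -0.80 at 100 mkd and -0.25, -0.22 and -0.32 at 10 mkd. Pecam1, an adhesion molecule of endothelial junctions, read -0.53, -0.62, -0.75 and -0.69 against -0.19, -0.34 and -0.51. Each had a difference of -0.30 ± 0.13 (95% interval -0.57 to -0.03). Kdr, the main VEGF receptor, went the other way, at 0.51, 1.02, 0.92 and 1.23 at 100 mkd and 0.92, 0.46 and 0.74 at 10 mkd, with a difference of 0.22 ± 0.21. The other endothelial markers spread around 0, with Cdh5 at -0.27 ± 0.12 and Tek at 0.09 ± 0.05 at 100 mkd, neither called. Per array the median of the list was -0.33 to -0.09 at 100 mkd, -0.16 to -0.06 at 10 mkd and -0.28 to 0.20 in the others.

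Among the named genes called lower at 100 mkd against the other compounds, the 10 largest falls also included Cd34 and Prom1, surface glycoproteins of progenitor and endothelial cells, Podxl and Cd93, which are carried by endothelium among other cells, and the GTPases Gimap4 and Gimap7. Cd34 read -0.74, -0.64, -1.02 and -0.61 at 100 mkd and -0.18, 0.07 and -0.42 at 10 mkd, a difference of -0.58 ± 0.20 (95% interval -0.98 to -0.18, adjusted p = 0.96). Podxl read -0.74, -0.60, -0.67 and -0.75 at 100 mkd and -0.27, -0.63 and -0.21 at 10 mkd, where rat 1348 alone reached the high-dose values. Its responses were -0.82 ± 0.10 and -0.50 ± 0.12. Prom1, Cd93 and Gimap4 had differences of -0.47 ± 0.18, -0.46 ± 0.20 and -0.41 ± 0.17. None of these differences was called. Among the named genes called lower at 100 mkd against the other compounds, Nrep had the largest fall (-1.29 ± 0.26), at -1.05, -0.85, -1.71 and -2.24 at 100 mkd and -0.85, -0.31 and -0.27 at 10 mkd, where rat 1346 and rat 1374 of the high dose were equal to 2 decimals.

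**Figure D3:**
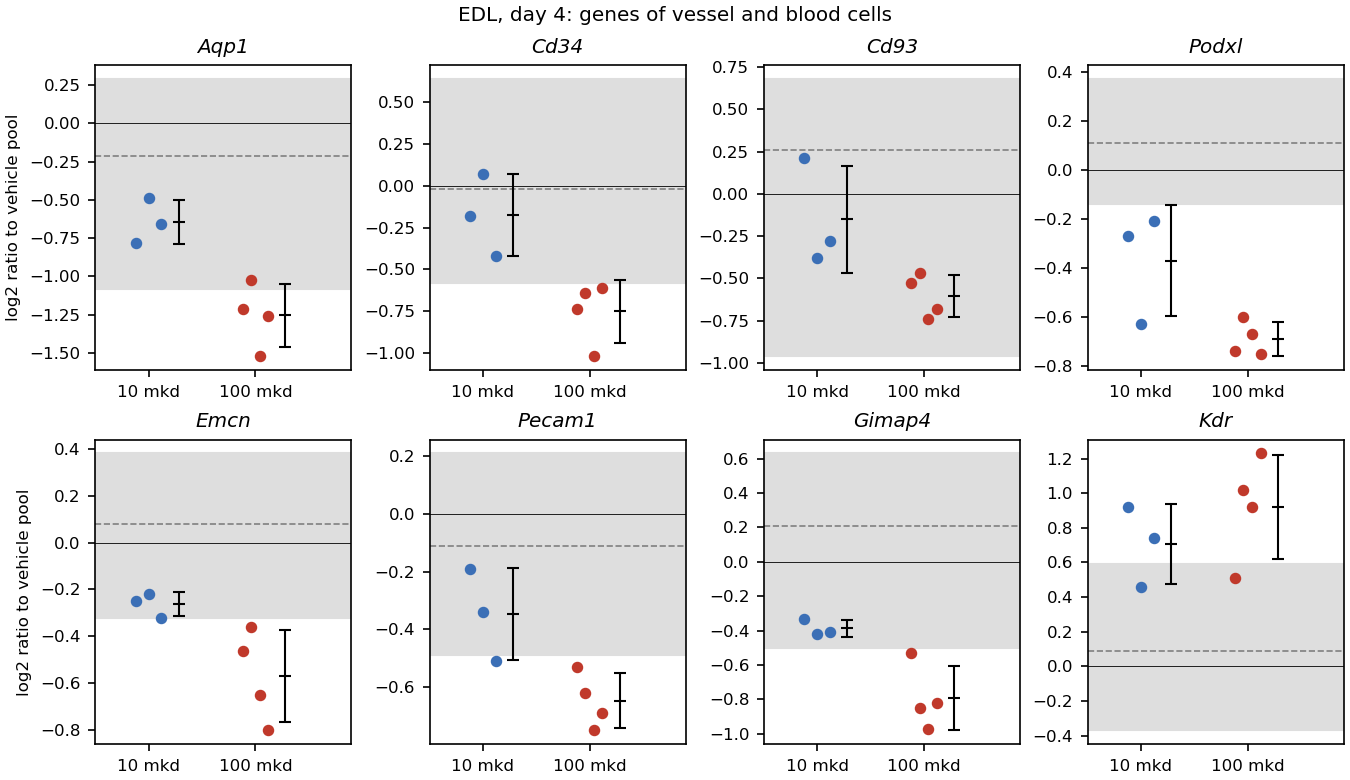
Log2 ratio to the vehicle pool for 8 genes of vessel and blood cells in EDL on day 4, 1 point per rat, at 10 mkd (blue) and 100 mkd (red); black marks are the mean and SD, the grey band is the range of the 12 arrays of other compounds and the dashed line their median. Aqp1, Cd34, Cd93, Emcn, Pecam1 and Gimap4 lay lower in every rat at 100 mkd than in any at 10 mkd, as did 515 of all 18603 features (2.77%). Several of the 8 genes were picked for a large fall at 100 mkd, which tilts them toward such a gap. Kdr lay higher than the other compounds' median in all 7 rats.

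Genes picked by their value in either day 4 group are tilted toward a difference between doses. Lists chosen on other arrays were therefore read. The first holds the 63 features (0.339%; 46 or 0.247% higher and 17 or 0.0914% lower) called at 10 mkd on days 5 and 6 against the other compounds of those days, which used none of the 7 arrays. Signed by that response, their median on day 4 was 0.33 at 10 mkd and 0.54 at 100 mkd. Of them 12 and 50 were called there, beside 0.0645% and 1.56% of all features. The difference between doses went further in the direction of the response for 57 of 63, with a median of 0.17. Over all features, unsigned, 8813 of 18603 differences were above 0. Of the 63 differences 0 were called, beside 0.0108% of all features. Scaled to one spread, the arrays gave 44 of 63 in the direction of the response. The response at 10 mkd did not differ between day 4 and days 5 and 6 for any feature called by limma: 0 of 18603 (0.00%), with 365 (1.96%) at an unadjusted p under 0.05.

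Within that list the genes differed in how far the low dose had gone; the examples were picked after their values were seen. Lmo1, a LIM-domain regulator of transcription, was 0.55 at 10 mkd and 0.68 at 100 mkd, with a difference of 0.13 (95% interval -0.17 to 0.43). Lzts1 (0.44 and 0.49), Rapgef3, a cAMP-activated exchange factor (0.44 and 0.50), Adora2a, an adenosine receptor (0.23 and 0.30), and Gba2, a glucosylceramidase (0.46 and 0.37), were nearly equal at the 2 doses. Others stood further apart. Efnb1, an ephrin ligand, was 0.28 and 0.52 (difference 95% interval 0.03 to 0.46), Slc2a3, a glucose transporter, 0.13 and 0.28 (0.04 to 0.25), and St6galnac3, a sialyltransferase, 0.29 and 0.48 (0.02 to 0.38). Among the 8 named falling genes all 8 had a lower mean at 100 mkd: Stmn1, a microtubule regulator, was -0.29 and -0.68 (difference -0.39, 95% interval -0.58 to -0.19), Myo10, an unconventional myosin, -0.48 and -0.94, Tmem255b -0.15 and -0.53, Ncald -0.18 and -0.46, and Clec14a, a lectin of endothelium, -0.25 and -0.41. The 17 falling features had medians of 0.29 at 10 mkd and 0.68 at 100 mkd in the direction of the fall, and the 46 rising ones 0.40 and 0.53. Whether rising and falling genes differ in this was not tested.

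**Figure D4:**
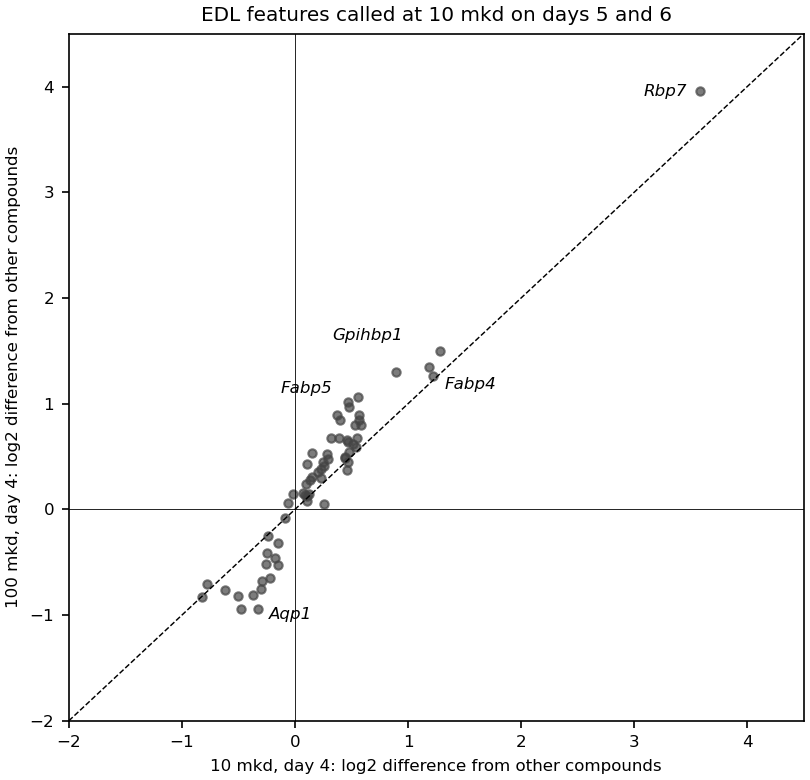
Difference from the other compounds on day 4 at 10 mkd (x axis, log2) and at 100 mkd (y axis, log2) for the 63 EDL features called at 10 mkd on days 5 and 6; the dashed line marks equal values, and both axes use the same 12 reference arrays. Rbp7 lies at the upper right (3.58 and 3.96), Fabp4 close to the line (1.22 and 1.26), and Aqp1 (-0.33 and -0.94) below it.

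The second list holds the 746 features (4.05% of 18425; 453 or 2.46% higher and 293 or 1.59% lower) called in quad at 100 mkd on days 2, 3, 5 and 6, with 12 rosiglitazone arrays against 48 single vehicle rats of the same days. None of the EDL arrays entered that choice, and the list was made at the high dose. In EDL on day 4 its median response was 0.07 at 10 mkd and 0.20 at 100 mkd. The difference between doses pointed the way of the quad response for 640 of 746, with a median of 0.13. Over all features, taken without a sign from quad, 8813 of 18603 differences were above 0. Of the 746, 2 were called, Aqp3 and the unnamed probe, beside 0.0108% of all features. All 4 high-dose arrays lay beyond all 3 low-dose arrays in the direction of the quad response for 118 of the 746 and in the opposite one for 3. Over all features the shares were 3.01% above and 2.77% below. For the 101 features that changed by over 0.5 in quad the medians were 0.30 and 0.56, and 92 differences went in the direction of the response. With arrays scaled to one spread the count was 553 of 746, and without 1 array of the 7 it was 604 to 646.

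The low dose was also measured on 3 days, and 9 low-dose arrays of days 4 to 6, with equal weight per day, were set against the 4 high-dose arrays. Day and pool then differ between the doses, which cannot be told apart from dose here. By this comparison 9 features (0.0484%) were called, 7 higher (0.0376%) and 2 lower (0.0108%) at 100 mkd. Aqp3 differed by 0.94 (adjusted p = 2.4e-07 by limma) and the probe 10011871640 by 0.71 (adjusted p = 0.031). The named others, picked here after their values were seen, were Mmp12, a macrophage elastase (0.85 above the other compounds, with rat 1374 at 2.36 and the other 3 high-dose rats at 0.28 to 0.90), Tfap4, Msh5 and Tbl1xr1 higher and Csf2 and Igfbp4 lower. In the comparison within day 4 these 6 had adjusted p from 0.065 (Csf2, difference -0.47 ± 0.09) to 0.91 (Igfbp4).

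No listed marker of another cell type passed the test between doses, which 0.0108% of all features passed. Against the other compounds 0.0645% of all features were called at 10 mkd and 1.56% at 100 mkd. At these shares 0 calls in a list of this size says little about a cell type. Of 16 fibroblast and matrix genes 0 were called at either dose or between doses, with a median difference of -0.24 and 2 of 16 above 0. Their median per array was -0.44 to -0.12 at 100 mkd, -0.15 to 0.18 at 10 mkd and -1.18 to 0.32 in the others. Of 16 macrophage and leukocyte genes 0 were called, with a median difference of -0.02. Fast fibre contractile genes (10 measured) and oxidative phosphorylation subunits (25 measured) had 0 calls against the other compounds or between doses, with median differences of -0.20 and -0.10. The part of any of these in the gene differences above was not tested.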

How the data were processed

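The deposited table holds log10 ratios for 23653 probes on 484 arrays of 2 colours, each comparing 1 rat (Cy5) with a vehicle pool of the same tissue and day (Cy3), with no dye swap, per the labels. The image analysis, normalization, scale and direction are not given in the sources used here. Scale was inferred from the values, which centre near 0 and stop at -2 and 2, the bound of a 100-fold limit. Another base would change all folds and leave the tests. Values were multiplied by 3.32 to give log2 ratios from the deposited log10 values. EDL had 0 missing values, and 19 values of the 7 arrays lay at the limit.

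Probes were named through the platform table and the rat gene table: 15260 named 1 gene, 17 several and 8376 none, and 15204 of the first matched by gene identifier. Probes of a gene were averaged. A model with a mean for each of 18 EDL groups was fitted to all 54 EDL arrays with limma 3.58.1 in R 4.3.3 (36 residual degrees of freedom). P-values are limma's moderated ones, two-sided, adjusted by Benjamini-Hochberg over 18603 features at 0.05. The reference of 12 other-compound arrays was listed in advance as a second setting and became the reading of each dose after it was seen to differ from the pool. Intervals are 95%. The fit was tested on simulated data. Members, gene lists and rules were chosen with earlier results of these data known. Described genes were the largest changes per contrast and class, up to 4 per list and all PPARG readouts. Alternatives covered the arrays in the fit, centring, spread, weights, probes, references and each array left out. Intensities were not used, so the number of arrays limits precision. Tables and plots were made in Python 3.11.15 with pandas 2.3.3 and matplotlib 3.10.9.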

Additional observations from a re-analysis of the deposited data

Results flagged for a closer look

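In 15 of 120 described genes 1 of the 4 rats at 100 mkd stood apart from the others by Dixon's test on the log2 ratios. Chance alone marks about 1 in 20 groups, and the genes were chosen in part for large values. Rat 1374 read 4.31 for Snapc1 (others 0.23 to 0.77), 6.64 for Tas2r105 (0.10 to 0.29) and -0.47 for Pdk4 (0.18 to 0.22). Rat 1375 read 6.64 for Cacng5 (-0.04 to 0.23), 6.64 for Tff2 (0.02 to 0.18), -6.64 for Hemgn (0.05 to 0.31), -0.49 for Ccna2 (-0.25 to -0.22) and -0.21 for Pck1 (0.03 to 0.06). The values of 6.64 and -6.64 are the limits of the table. Rat 1373 read -0.28 for Cox8b (-0.95 to -0.87), 0.02 for Lep (-0.14 to -0.13) and -0.03 for Retn (-0.26 in each of the others). Rat 1376 read 0.55 for Gpam (-0.61 to -0.41), -0.53 for Mpc1 (-0.32 to -0.30), 0.04 for Per1 (-0.47 to -0.43) and -0.05 for Slc16a1 (-0.46 to -0.41). Rbp7, Fabp4, Gpihbp1, Mgll and Aqp3 were not among the 15.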

How the results depend on the processing

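Leaving out each array in turn gave 1 to 3 calls between doses (2 with all), 625 to 998 against the pool at 10 mkd and 4534 to 5949 at 100 mkd, 7 to 16 and 144 to 569 against the other compounds, 50 to 58 of 63 and 604 to 646 of 746 differences in the direction of the response, 11 to 25 level and 1 to 3 rising features. Fitted to the 7 arrays alone, calls were 0 between doses and 569 against the pool at 10 mkd, and 0 features rose further. The 19 arrays of day 4 gave 1 between doses and 6 and 116 against the other compounds. Arrays scaled to one spread gave 1, 20 and 82, and 2981 against the pool at 10 mkd. Quality weights gave 3260 against the pool at 10 mkd, 74 and 633 against the other compounds and 2827 in quad. Probes as features gave 1 between doses and 19 at 10 mkd against the other compounds. The other compounds in place of the pool gave 12, 291 and, on days 5 and 6, 63 calls. At 100 mkd the reference without fenofibrate gave 152, without bezafibrate 184, without Wy-14643 480 and of retinoic acid alone 78, with 7 at 10 mkd. Low-dose days 4 to 6 gave 9 calls. A tolerance of 1 gave 854 level features and the other-compound rule 3. The cause of these shifts was not tested.

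Differences near 0 turned sign: under one spread Rbp7 (-0.70), Fabp4 (-0.37), Gpihbp1 (-0.21), Elovl6 (-0.11) and Tbc1d9 (-0.03); Elovl6 with weights (-0.02) and with 1 array left out (-0.04 without rat 1345 to 0.21); Fabp4 with 1 array left out (-0.01 without rat 1346 to 0.13) and against days 4 to 6 (-0.03). Aqp3 at 10 mkd against the other compounds was 0.03 without rat 1346 and 0.01 without fenofibrate in the reference. No paired analysis was possible because the 2 doses were given to different rats with no shared number. With 3 and 4 arrays, differences under about 0.24 lay within the median unadjusted 95% interval, and larger ones also missed a call over all features.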
